A study of Mus musculus with 4 samples.

Results

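Microtubules are hollow fibres built from dimers of alpha- and beta-tubulin, and each of these proteins is made from several genes, called isotypes, that differ most in the tail of the protein. In megakaryocytes, the bone marrow cells that release platelets, microtubules pull apart the chromosomes, drive the long extensions called proplatelets and form the ring at the edge of the resting platelet. Tubb1 encodes the beta-tubulin that is nearly restricted to megakaryocytes and platelets. The genes described here are the 10 alpha- and beta-tubulin genes Tuba1a, Tuba1b, Tuba1c, Tuba4a, Tuba8, Tubb1, Tubb2a, Tubb4b, Tubb5 and Tubb6, taken from a given list of names and found by symbol among the 41214 gene identifiers of the count tables. All 10 were found, 5 of each family, and all 10 passed the filter on low counts that left 15063 genes for testing.

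RNA was sequenced from megakaryocytes sorted from leg and arm bones of C57Bl/6 mice aged 8 weeks, as cells without lineage markers that carry cKit, CD41 and CD61. There were 4 groups of 1 library each: Gfi1b WT with PF4-Cre, Gfi1b KO with PF4-Cre, Gfi1b WT with ROSA-Cre and Gfi1b KO with ROSA-Cre, so wild-type and knockout animals of a model share their Cre label. Gfi1b encodes a zinc finger repressor of transcription needed by megakaryocytes and red cells. The Pf4 promoter is active in megakaryocytes, while nothing further is stated about the ROSA-Cre allele. Whether each library holds the RNA of 1 mouse or of pooled mice is not stated either, so the number of animals behind each is unknown. The spread between libraries mixes Cre model, animals and technique in unknown parts. The 2 Cre models stand in as replicates of each other (n = 2 libraries per genotype). Each p-value of the main edgeR fit weighs the size of a change against a spread. For each gene that spread joins its own mismatch across the models (1 residual degree of freedom) with spread shared over genes (6.25 prior degrees of freedom).

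Gene counts totalled between 21835165 and 61652843 per library, 2.48-fold (wild-type) and 2.73-fold (knockout) more in PF4-Cre than in ROSA-Cre. Gfi1b counts were higher in both libraries labelled knockout (10137 against 84744 in PF4-Cre, 5864 against 55122 in ROSA-Cre). The exons deleted are not stated, so this count cannot check the labels, and knockout means labelled knockout throughout. All 14 megakaryocyte markers looked for were present. Itga2b, which encodes CD41, had 395 to 655 CPM per kb (CPM is the count scaled to a common library size by TMM, and kb the exonic length) and Pf4 986 to 2796, but Gp6, the collagen receptor, had only 0.267 to 2.26 and Gp1ba, a chain of the von Willebrand factor receptor, 1.43 to 4.72. Summed T cell markers stood at 0.0447 to 0.231 CPM. Markers of other cell types were not as low, with neutrophil markers summing to 489 to 1876 CPM and mast cell and basophil markers to 216 to 898. Sums of the remaining lists are given further below. In bulk RNA, fewer cells of a type and less RNA per cell cannot be told apart.

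Tubulin genes are close copies of each other, which limits how reads can be assigned to one of them. The following stretches, coding bases 601 to 660 read from GENCODE M21 transcripts (GRCm38), show how far 4 beta genes differ, with capitals where a base differs from Tubb5.
Tubb5 (chr17:35835657-35835716, minus strand): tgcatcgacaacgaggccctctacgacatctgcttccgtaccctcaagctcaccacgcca
Tubb4b (chr2:25222986-25223045, minus strand): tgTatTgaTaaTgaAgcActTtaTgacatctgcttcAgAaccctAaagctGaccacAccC
Tubb2a (chr13:34075146-34075205, minus strand): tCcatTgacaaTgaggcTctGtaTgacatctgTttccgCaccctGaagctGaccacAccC
Tubb1 (chr2:174457127-174457186, plus strand): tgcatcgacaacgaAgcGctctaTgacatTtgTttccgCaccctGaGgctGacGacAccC
Over these 60 bases, differences from Tubb5 numbered 14 in Tubb4b, 12 in Tubb2a and 12 in Tubb1.

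Over whole coding sequences, Tuba1a, Tuba1b and Tuba1c were 97.1% to 98.3% identical to each other. Tuba8 was the alpha gene farthest from the others (78.8% to 80.8%), and Tubb1 the farthest of the beta genes (73.0% to 75.8%). An alpha gene and a beta gene were 50.7% to 55.1% identical. Of all 100-base windows in the transcripts of each gene, 65.9% for Tuba1a, 65.2% for Tuba1b and 46% for Tuba1c also occurred in a transcript of another gene, with the other Tuba1 genes among the leading partners. For Tubb2a the share was 36.9% (mainly Tubb2b and a pseudogene) and for Tubb4b 22.0% (mainly its pseudogene Tubb4b-ps1). Tuba4a had 32.4%, from the kinase gene Stk16 on the opposite strand, and Tuba8 12.5%, from the antisense gene Gm15856. Tubb1, Tubb5 and Tubb6 had no shared window of 100 bases, so their counts are the least touched by their relatives.

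**Figure D1:**
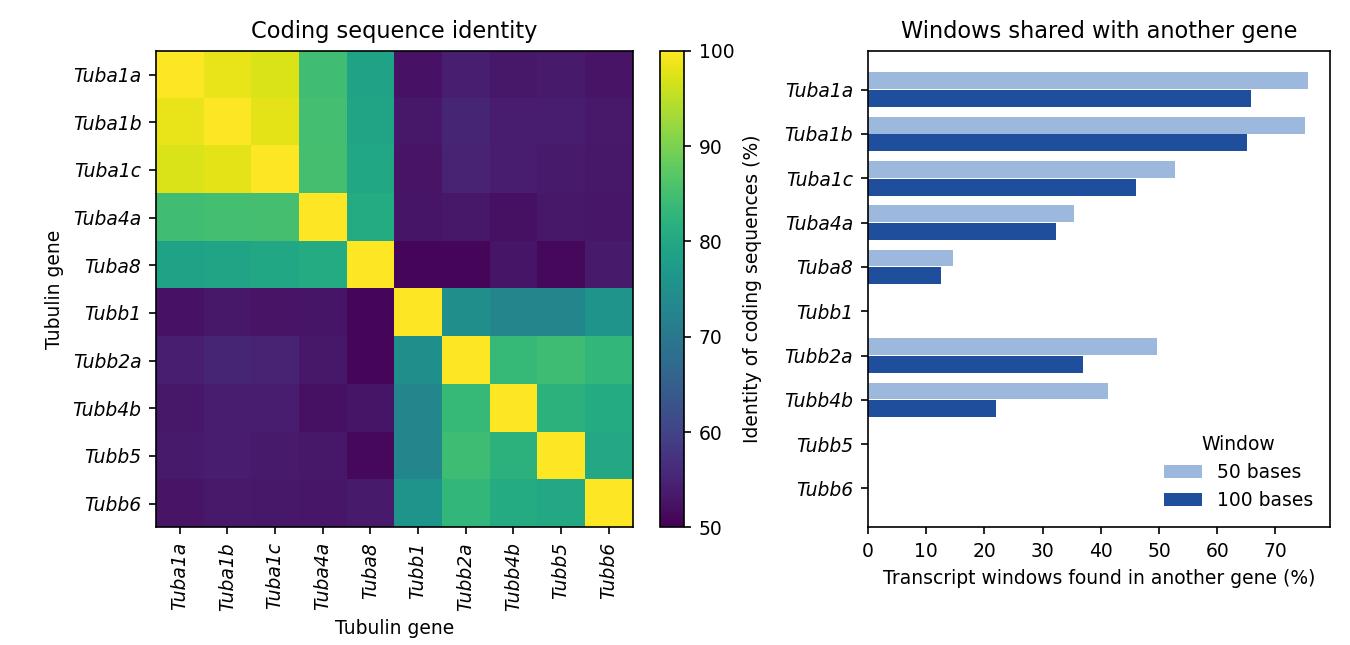
Left, identity of the coding sequences of each pair of tubulin genes (colour, in percent). Right, the percentage of 50-base and 100-base windows of each gene's annotated transcripts that also occur in another gene's transcripts. The 3 Tuba1 genes form the block above 97% identity and have the largest shares of windows in common with other genes (46% to 65.9% at 100 bases), while Tubb1, Tubb5 and Tubb6 have next to none.

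Reads that align to several places do not enter the gene counts, and the category of non-unique alignments held 0.99 to 1.19 entries per counted read. How many of these came from tubulin genes was not measured, so levels of the Tuba1 genes relative to Tubb5 or Tubb1 are uncertain. Of the genes that share sequence with tubulin genes, Tubb2b had 0 to 6 counts, Gm14150 25 to 93, Tubb4b-ps1 21 to 115, Tubb4b-ps2 4 to 19 and Gm15856 5 to 68 per library. Other partners of the Tuba1 genes were not analysed here, among them AC157548.1 and Gm49450, which overlaps Tuba1a and Tuba1b on their strand. Stk16 had 2745 to 7386 counts and did not pass the genotype test (log2 fold change -0.28, SE 0.14, adjusted p = 0.194, edgeR). Whether counting used the strand is not stated by the sources at hand, so reads of Tuba4a and Stk16, or of Tuba8 and Gm15856, cannot be told apart where they overlap.

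The most abundant tubulin gene per unit of length was Tubb5, the main beta-tubulin of dividing cells (ENSMUSG00000001525, chromosome 17 from 35833921 to 35838306, minus strand). Its level was 483 CPM per kb in PF4-Cre wild-type, 314 in PF4-Cre knockout, 504 in ROSA-Cre wild-type and 407 in ROSA-Cre knockout. It stood first in each of the 4 libraries, and no library of any other tubulin gene reached it. Tubb4b, a widely made beta-tubulin, came next at 136 to 258 CPM per kb, ahead of Tuba1b, the most abundant alpha-tubulin, at 75.4 to 148. The order of these 3 was the same within each library, although the ranges of Tubb4b and Tuba1b overlapped across libraries.

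Tuba8 and Tuba4a followed with overlapping ranges of 20.9 to 129 and 44.9 to 97.7 CPM per kb. Tuba8 is an alpha isotype made in few tissues, and Tuba4a is an alpha-tubulin of platelets whose coding sequence lacks the final tyrosine that most alpha-tubulins carry. Per exonic length, Tuba8 was the higher in both wild-type libraries and Tuba4a in both knockout libraries. The order in wild-type rested on the length used: Tuba4a had more counts than Tuba8 in all 4 libraries, and per length not shared with another gene it was also ahead in PF4-Cre wild-type (18.9% and 17.9% of alpha). Tuba1c lay at 20.2 to 41.4, below every library of Tuba4a. Tuba1a, best known from neurons, and Tubb2a were not separated (9.77 to 13.8 and 6.85 to 19.96).

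Tubb1, the platelet beta-tubulin, stood ninth of the 10 genes in each library. Its levels were 7.13 CPM per kb in PF4-Cre wild-type, 6.53 in PF4-Cre knockout, 11.4 in ROSA-Cre wild-type and 3.53 in ROSA-Cre knockout. Tubb5 was 67.8, 48.1, 44.3 and 115 times as abundant per length in the same order, a comparison between genes that share no 100-base window. Tubb6, a minor beta isotype, was the lowest at 2.25 to 3.94, and its range overlapped that of Tubb1.

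**Figure D2:**
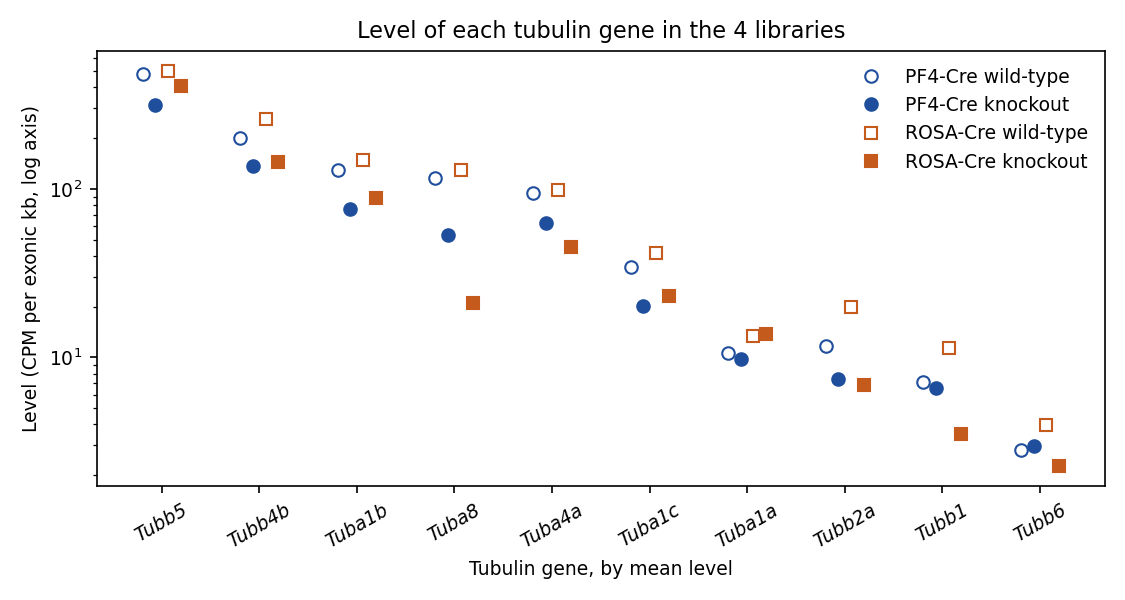
Level of each tubulin gene in each library (CPM per exonic kb, log axis), with genes ordered by their mean and 1 point per library (circles PF4-Cre, squares ROSA-Cre, open wild-type, filled knockout). Tubb5 lies above all other genes at 314 to 504, and Tubb1 lies near the bottom at 3.53 to 11.4.

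The make-up of the alpha family was close between the wild-type libraries and differed most in the ROSA-Cre knockout. Among the 5 alpha genes, counted per length, Tuba8 made up 30.1% in PF4-Cre wild-type, 23.98% in PF4-Cre knockout, 30.04% in ROSA-Cre wild-type and 10.9% in ROSA-Cre knockout. These are shares of a fixed whole, so a smaller Tuba8 share leaves larger ones for other genes. Tuba1b stood at 33.7%, 34.1%, 34.5% and 46.4%, although its own knockout to wild-type ratio in ROSA-Cre was 0.598. The shares of Tuba1a and Tuba1c were also larger in the ROSA-Cre knockout than in its wild-type. Tuba4a kept between 22.7% and 28.4%. The share of raw alpha counts that were Tuba8 had Clopper-Pearson intervals of 27.2% to 27.9% and 21.1% to 22.0% in PF4-Cre, and of 27.3% to 28.4% and 9.75% to 10.9% in ROSA-Cre. Those intervals did not overlap between genotypes, but they cover counting error only and there is 1 library per group.

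The beta family did not show this, since its wild-type libraries differed by more than the PF4-Cre pair did. Tubb5 made up 68.5%, 67.2%, 63.2% and 72.2% of the 5 beta genes in the same order of libraries, and Tubb4b 28.5%, 29.2%, 32.4% and 25.5%. Tubb1 contributed 1.01%, 1.40%, 1.42% and 0.626%. When each length was reduced to the part not shared with another gene at 100 bases, a choice made after seeing the data, Tuba1b made up 49.6% to 59.5% of alpha and Tuba8 5.58% to 17.9%. On that scale too, the Tuba8 share was lower in the ROSA-Cre knockout than in its wild-type (17.7% and 5.58%).

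**Figure D3:**
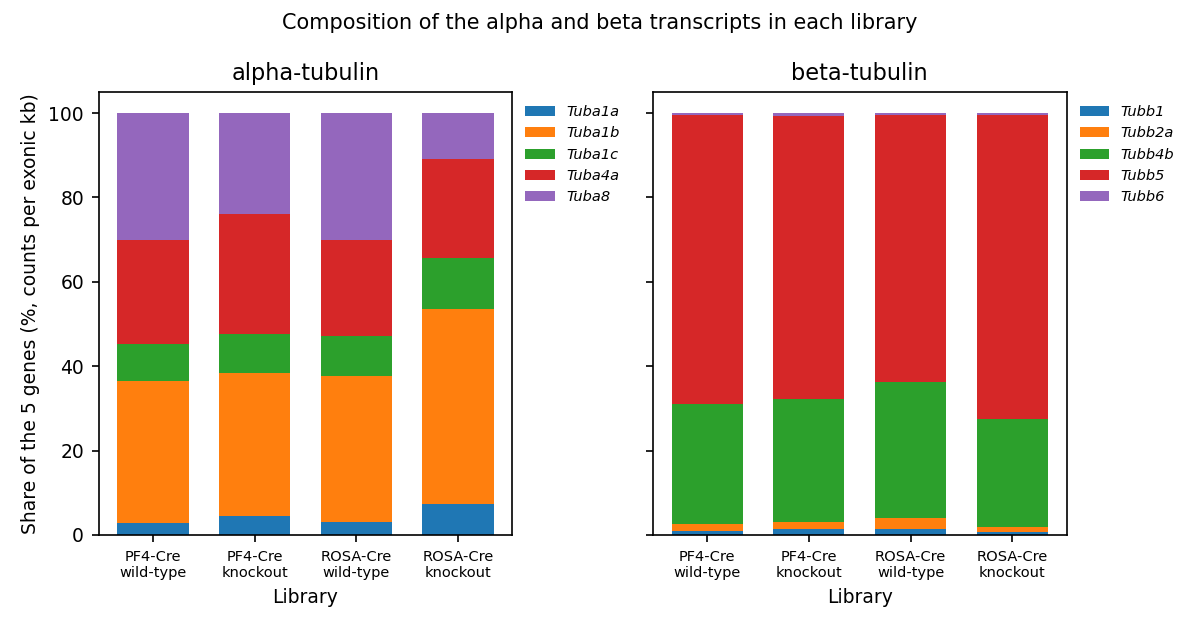
Share of each gene in its family's transcripts per library, in percent of the summed counts per exonic kb of the 5 alpha genes (left) and 5 beta genes (right). The Tuba8 block shrinks from 30.04% to 10.9% in the ROSA-Cre pair, and from 30.1% to 23.98% in the PF4-Cre pair, while the beta side is Tubb5 and Tubb4b in all libraries.

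The genotype comparison asks which tubulin genes differ between Gfi1b knockout and wild-type megakaryocytes on average over both models. It does not test either model alone. Of the 10 genes, 6 were lower in knockout and 0 higher: Tuba1b, Tuba1c, Tuba4a, Tuba8, Tubb2a and Tubb4b fell, while Tuba1a, Tubb1, Tubb5 and Tubb6 did not pass (edgeR's quasi-likelihood test, Benjamini-Hochberg adjusted over all 15063 genes). Over all tested genes 9.59% were called lower and 12.6% higher. With a correction for GC content and length, added after seeing the data, 7 of the 10 were lower, against 20.2% of tested genes lower and 10.9% higher. The median log2 fold change was -0.78 for the 10 genes and -0.02 for all tested genes. At an unadjusted p under 0.05 (edgeR), 7 were lower and 0 higher. The share of all tested genes at that unadjusted level is not given, here or for the unadjusted counts further below. In 8 of 10 genes both knockout libraries lay below both wild-type libraries, which held for 23.7% of tested genes.

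The count of 6 rested on all 4 libraries and on the term for the Cre model. Only Tuba8 was called when the wild-type or the knockout library of PF4-Cre, or the wild-type library of ROSA-Cre, was left out (1 gene each). No gene was called without the ROSA-Cre knockout (0), and all 4 libraries without the Cre term also gave 0. With 3 libraries that term had to be dropped, so those fits also count the model difference as spread. Calls were fewer over all tested genes too in each of these fits. All 4 libraries without the Cre term gave 0.0266% of tested genes called lower, against 9.59% in the main fit.

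Tuba8 (ENSMUSG00000030137, chromosome 6 from 121210696 to 121226854, plus strand) changed most. Its counts were 15683 in PF4-Cre wild-type and 7272 in PF4-Cre knockout, 7196 in ROSA-Cre wild-type and 1058 in ROSA-Cre knockout. Both knockout libraries lay below both wild-type libraries, and the ROSA-Cre knockout far below the rest. Within PF4-Cre the normalised ratio was 0.458, with a 95% Clopper-Pearson interval for counting error of 0.446 to 0.471. Within ROSA-Cre it was 0.162 (0.151 to 0.172). Over both models the log2 fold change reached -1.86 (SE 0.32, adjusted p = 0.00915, edgeR). Without the ROSA-Cre knockout library the fold change was -1.21 (adjusted p = 0.0883, edgeR). A robust prior gave an adjusted p of 0.0567 for the same change (edgeR).

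Tuba4a (ENSMUSG00000026202, chromosome 1 from 75214228 to 75219865, minus strand) had 20921 counts in PF4-Cre wild-type and 14104 in its knockout, against 8900 and 3721 for the ROSA-Cre pair. The ratios were 0.666 (counting interval 0.652 to 0.680) and 0.460 (0.442 to 0.477), and the log2 fold change -0.85 (SE 0.16, adjusted p = 0.0116, edgeR). The ratio was the lower one in ROSA-Cre, as for Tuba8.

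The Tuba1 genes sit next to each other on chromosome 15, Tuba1b from 98931425 to 98934565 and Tuba1a from 98949837 to 98953703 on the minus strand, and Tuba1c from 99029891 to 99038110 on the plus strand. Tuba1b (ENSMUSG00000023004) fell from 14531 to 8556 counts within PF4-Cre and from 6852 to 3725 within ROSA-Cre, ratios of 0.582 and 0.598 (log2 fold change -0.76, SE 0.12, adjusted p = 0.00637, edgeR). Tuba1c (ENSMUSG00000043091) fell from 4706 to 2796 and from 2329 to 1177, ratios of 0.587 and 0.556 (-0.81, SE 0.13, adjusted p = 0.00676, edgeR). Unlike Tuba8 and Tuba4a, these genes had similar ratios in both models.

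Tuba1a (ENSMUSG00000072235), the near-copy beside them, had 1142 (wild-type) and 1066 (knockout) counts with PF4-Cre, then 591 and 558 with ROSA-Cre. Its ratios were 0.922 (counting interval 0.848 to 1.0034) and 1.04 (0.923 to 1.17), and the log2 fold change -0.03 (SE 0.17, adjusted p = 0.906, edgeR) whose sign turned under 3 of 12 alternatives. Reads of these 3 genes can be moved among them or lost as non-unique. Their sum keeps the moved reads but not the lost ones. With PF4-Cre the sum was 20379 counts in wild-type and 12418 in knockout (ratio 0.602, counting interval 0.589 to 0.616). With ROSA-Cre it was 9772 and 5460 (ratio 0.614, 0.594 to 0.635).

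Tubb4b (ENSMUSG00000036752, chromosome 2 from 25222160 to 25224702, minus strand) fell from 25118 to 17214 counts (PF4-Cre, ratio 0.677) and from 13272 to 6724 (ROSA-Cre, ratio 0.557), or by -0.70 on the log2 scale over both (SE 0.13, adjusted p = 0.0131, edgeR). Tubb2a (ENSMUSG00000058672, chromosome 13 from 34074274 to 34078007, minus strand) fell from 1115 to 722 (ratio 0.640) and from 791 to 247 (0.344), a change of -1.07 (SE 0.25, adjusted p = 0.0249, edgeR). With no filter on low counts Tubb2a was not called (adjusted p = 0.0563, edgeR). Both genes went further down in ROSA-Cre.

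Tubb5 had the most counts of all 10 and a smaller difference. Its 96123 wild-type and 63138 knockout counts with PF4-Cre gave a ratio of 0.649 (counting interval 0.642 to 0.656). The 41236 and 30292 with ROSA-Cre gave 0.807 (0.795 to 0.819). Both knockout libraries lay below both wild-type libraries, here with the larger difference in PF4-Cre. The log2 fold change of -0.47 (SE 0.17) did not pass (adjusted p = 0.0897, edgeR), but it did by DESeq2's Wald test (adjusted p = 0.0173). It also passed in edgeR after a correction for GC content and length (adjusted p = 0.0350).

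Tubb1 (ENSMUSG00000016255, chromosome 2 from 174450695 to 174457882, plus strand) had 599 counts in PF4-Cre wild-type, 555 in PF4-Cre knockout, 393 in ROSA-Cre wild-type and 111 in ROSA-Cre knockout. The counting interval of its ratio spanned 1 with PF4-Cre (0.916, 0.814 to 1.03) but not with ROSA-Cre (0.311, 0.249 to 0.384). The log2 fold change was -0.80 (SE 0.36, adjusted p = 0.156, edgeR), and it was not called under any of the 12 alternatives. The least abundant gene, Tubb6 (ENSMUSG00000001473, chromosome 18 from 67390717 to 67402749, plus strand), had 408 wild-type and 439 knockout counts with PF4-Cre (ratio 1.06), then 236 and 123 with ROSA-Cre (0.574, counting interval 0.457 to 0.715), with a change of -0.30 (SE 0.29, adjusted p = 0.494, edgeR).

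**Figure D4:**
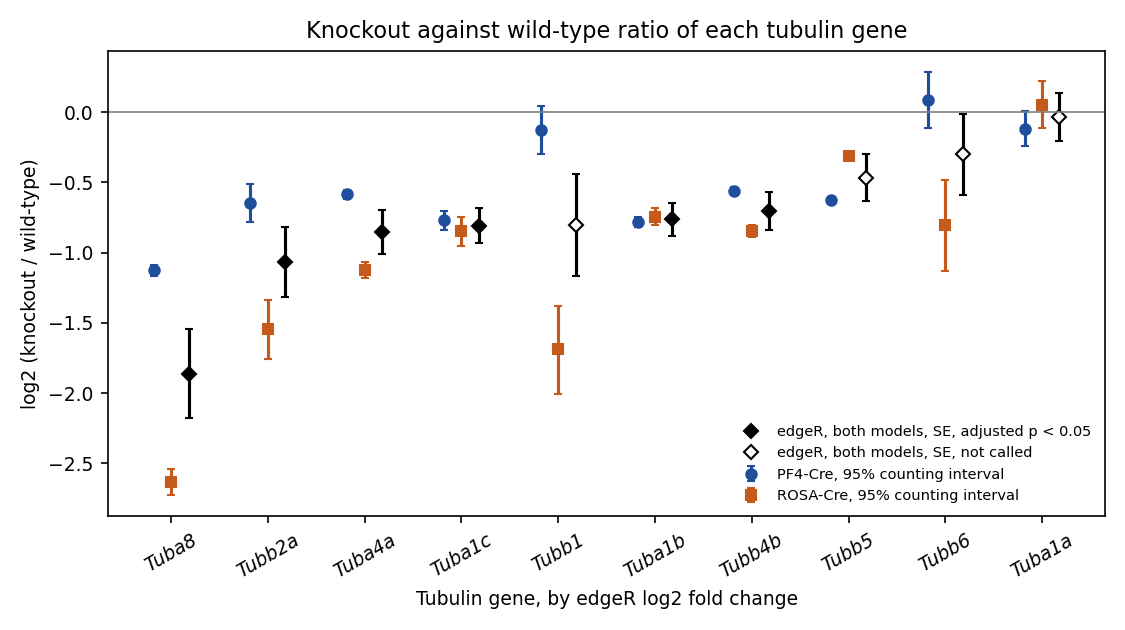
log2 ratio of knockout to wild-type for each tubulin gene within PF4-Cre (circles) and ROSA-Cre (squares), with 95% counting intervals, and the edgeR log2 fold change over both models (diamonds, with SE, filled where adjusted p is under 0.05). The 2 models lie close together for Tuba1b and Tuba1c and far apart for Tuba8 (-1.13 and -2.63) and Tubb1 (-0.13 and -1.68).

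The models differed most in Tubb1 and Tuba8, whose log2 ratio in ROSA-Cre minus that in PF4-Cre came to -1.56 and -1.503. With 1 library per group this difference between models could not be tested. The absolute difference had a median of 0.43 over the 10 genes and 0.29 over all tested genes. Tubb5 had the largest difference of the opposite sign, 0.32. Tuba1a followed at 0.17, but the counting intervals of its ratios overlapped between the models. Summed over the family, alpha counts went down more in ROSA-Cre (25868 to 10239, ratio 0.435) than in PF4-Cre (56983 to 33794, 0.586). Summed beta counts did the reverse (55928 to 37497, ratio 0.737, against 123363 to 82068, 0.657), but Tubb5 made up 73.7% to 80.8% of them. The other 4 beta genes each had the lower ratio in ROSA-Cre, and the median log2 ratio of the 5 beta genes was -0.56 in PF4-Cre and -0.84 in ROSA-Cre. Per length, alpha stood to beta as 0.545 in PF4-Cre wild-type, 0.474 in PF4-Cre knockout, 0.540 in ROSA-Cre wild-type and 0.340 in ROSA-Cre knockout.

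None of the 10 genes passed the test between the 2 Cre models with genotype as a term, although 18.7% of all tested genes did (edgeR's quasi-likelihood test, Benjamini-Hochberg adjusted). At an unadjusted p under 0.05 there was 1, Tuba1a, with ROSA-Cre libraries 0.41 above PF4-Cre ones in log2 (SE 0.17, adjusted p = 0.133, edgeR). DESeq2's Wald test called 0 as well.

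Genes whose pattern over the 4 libraries was most like that of Tuba8 and Tubb1 were sought among 10593 others with a mean of at least 5 CPM, by Euclidean distance of centred log2 CPM. Nearest to Tuba8 were Il1r1, the interleukin-1 receptor (distance 0.108), the lipoprotein receptor Lrp8 (0.122) and the Notch pathway regulator Nrarp (0.230). The nearest to Tubb1 were the leukocyte surface gene Cd52 (0.0952), the vascular growth factor gene Vegfa (0.204) and Gm24305 (0.206). With 4 libraries many genes can share a pattern, so these are a description.

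Tubulin must be folded by the chaperonin CCT with its helper prefoldin, and then by tubulin cofactors that join alpha to beta. For the list counts that follow, the shares over all 15063 tested genes were 9.59% called lower and 12.6% higher. Of 14 CCT and prefoldin genes, 5 fell and 0 rose, with a median log2 fold change of -0.46: Tcp1 (-0.57, SE 0.14), Cct2 (-0.53, SE 0.14), Cct7 (-0.60, SE 0.16), Cct8 (-0.53, SE 0.14) and Pfdn6 (-0.70, SE 0.15). The most abundant, Cct5, did not pass (-0.43, SE 0.14, adjusted p = 0.0618, edgeR). Of 7 cofactor genes, 3 fell and 0 rose (median -0.30), namely Tbcb (-0.49, SE 0.14), Tbcd (-0.47, SE 0.12) and Arl2, the small GTPase that works with them (-0.54, SE 0.16). DESeq2's Wald test called 1 cofactor gene lower. The most abundant cofactor gene, Tbca, had -0.30 (SE 0.14, adjusted p = 0.158, edgeR).

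Of 17 genes for enzymes that modify tubulin and their partners, 4 rose and 1 fell (median 0.19). Among all tested genes 12.6% were called higher and 9.59% lower. Higher were the glutamylase gene Ttll7 (131 wild-type and 347 knockout counts with PF4-Cre, 39 and 155 with ROSA-Cre, 1.67, SE 0.32), Svbp, the partner of the vasohibins that remove the final tyrosine (1.10, SE 0.22), the deacetylase Hdac6 (0.71, SE 0.17) and Agbl3, a deglutamylase (0.76, SE 0.22). Ttll12 was lower (-0.67, SE 0.16), and Ttll4, the most abundant, had 0.02 (SE 0.12). Vash1, a vasohibin, did not pass (-0.75, SE 0.27, adjusted p = 0.0912, edgeR).

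Cells also destroy tubulin mRNA when free tubulin is in excess, a control that acts on the nascent protein through Ttc5. Ttc5 itself had -0.06 (SE 0.13) and Cnot11, a subunit of the deadenylase that it recruits, -0.04 (SE 0.12), while Scaper, the adaptor between them, rose by 0.79 (SE 0.19, adjusted p = 0.0276, edgeR). No gene of the gamma-tubulin ring complex, which starts new microtubules, passed among 8 (median -0.11). At an unadjusted p under 0.05 there was 1 (Tubgcp6), and DESeq2's Wald test called 0.

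Of 10 further tubulin genes only gamma-tubulin Tubg1, delta-tubulin Tubd1 and epsilon-tubulin Tube1 had enough counts to test, and none passed (-0.46, -0.23 and -0.48, with adjusted p = 0.0749, 0.412 and 0.113, edgeR). At an unadjusted p under 0.05 there were 2, and DESeq2's Wald test called 0. The neuronal Tubb3 had 1 to 13 counts and Tubb4a 3 to 9. Of 7 transcription factor genes known to act on Tubb1 or on megakaryocyte maturation, 1 fell, Gata1 (-0.65, SE 0.13, adjusted p = 0.0168, edgeR). Among all tested genes 9.59% were called lower. Zfpm1, the GATA1 partner FOG1, had -0.35 (SE 0.13, adjusted p = 0.0951, edgeR). Nfe2, the factor most closely tied to Tubb1 and to platelet release, had 0.04 (SE 0.12), Runx1 0.25 (SE 0.12) and Fli1, the most abundant of the list, 0.25 (SE 0.14).

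**Figure D5:**
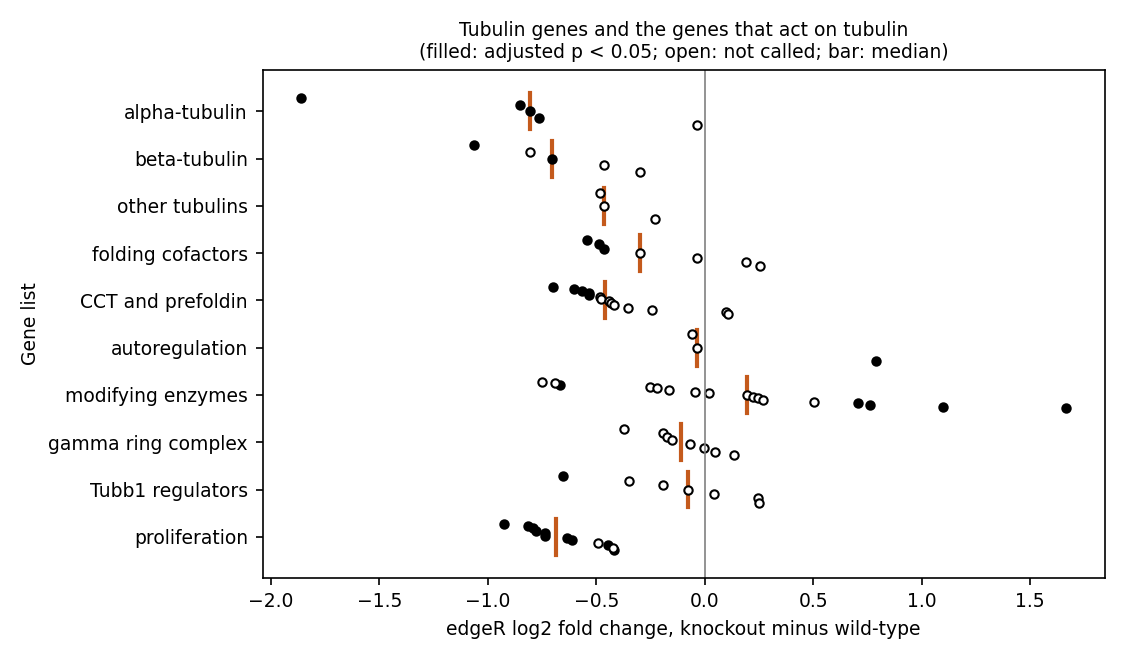
edgeR log2 fold change (knockout minus wild-type) of the tested genes in each list, 1 point per gene, filled where adjusted p is under 0.05, with the median of each list as a bar. The alpha and beta tubulin medians (-0.81 and -0.70) lie near that of the proliferation genes (-0.69), and the modifying enzymes lie on the other side of 0 (0.19).

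Genes of dividing cells and of other blood cells moved between these libraries too, and their part in the tubulin result was not tested. The counts below stand beside 9.59% of all tested genes called lower and 12.6% called higher. Of 12 proliferation genes, 10 fell and 0 rose (median -0.69), with summed CPM of 4413 and 3089 in PF4-Cre and 3496 and 2375 in ROSA-Cre, wild-type first. The most abundant, Top2a, had -0.49 (SE 0.16, adjusted p = 0.0650, edgeR). Of 10 neutrophil markers, 4 fell and 0 rose, and all 10 summed to 1727 and 1056 CPM with PF4-Cre and 1876 and 489 with ROSA-Cre. The median log2 ratio of the 10 was -0.13 in PF4-Cre and -1.95 in ROSA-Cre. The 4 that fell, Mpo, Elane, Ctsg and Prtn3, did so in both models (PF4-Cre -1.88 to -1.50, ROSA-Cre -2.07 to -1.91). The 6 not called were lower mainly in ROSA-Cre. Their log2 ratios ranged from -0.25 to 0.30 for PF4-Cre and from -2.15 to -0.91 for ROSA-Cre. Of 9 erythroid markers found, 5 rose and 1 fell (sums of 34.5 and 211 in PF4-Cre, 99.0 and 341 in ROSA-Cre). Among the 14 megakaryocyte markers 5 rose and 3 fell, and their sum was 7061 and 7940 in PF4-Cre against 9948 and 6827 in ROSA-Cre, with Pf4 lower in knockout (-0.99, SE 0.26) and Clec1b, the podoplanin receptor, higher (2.65, SE 0.13). Wild-type first, mast cell and basophil markers summed to 216 and 389 (PF4-Cre) and 296 and 898 (ROSA-Cre). Most of that sum was Gata2, at 153 and 303 then 213 and 789 CPM. Of these 6 markers 2 rose, Gata2 and Fcer1a, and 4 were not called. Monocyte markers summed to 75.3 and 85.1 then 77.9 and 33.9. In PF4-Cre their median log2 ratio was -0.28 although the sum rose, with Ccr2 at 41.3 and 60.2 CPM. B cell markers summed to 30.4 and 22.6 then 27.5 and 20.4. Endothelial markers summed to 134 and 177 then 106 and 115, and stem cell markers to 612 and 782 then 501 and 861. No marker of any list was at 0 in all 4 libraries.

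The windows before the start sites of 2 beta genes are shown because they held the most motif matches among 9 of the 10 genes whose promoters RefSeq lists (GRCm38.p6). The 250 bases before each start were searched on both strands for 6 motifs, and capitals mark each match. Searched were AGATAA, known from erythroid factors of the GATA family, TGAGTCA, known from NF-E2 and AP-1, and AAATCAC, known from GFI1 proteins. Also searched were CCAAT, known from NF-Y, CCGGAA, known from ETS factors, and TGTGGT, known from RUNX factors.
Tubb4b (chr2:25224703-25224952, minus strand): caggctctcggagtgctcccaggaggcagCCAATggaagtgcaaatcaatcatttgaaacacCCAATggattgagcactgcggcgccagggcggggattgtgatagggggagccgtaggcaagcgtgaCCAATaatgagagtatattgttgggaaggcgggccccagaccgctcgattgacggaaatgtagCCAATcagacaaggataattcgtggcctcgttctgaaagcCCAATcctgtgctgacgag
Tubb5 (chr17:35838302-35838551, minus strand): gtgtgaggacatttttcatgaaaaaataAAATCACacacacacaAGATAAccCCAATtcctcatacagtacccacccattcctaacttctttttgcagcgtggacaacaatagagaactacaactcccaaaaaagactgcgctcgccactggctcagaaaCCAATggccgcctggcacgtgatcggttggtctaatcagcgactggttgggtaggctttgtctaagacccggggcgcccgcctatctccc
Tubb4b held CCAAT 5 times, 0.213% of 32817 promoter windows held it at least 5 times, and 33.8% held it at least once. Tubb5 held CCAAT 2 times (at least 2 in 10.1% of windows), AGATAA once (9.99%) and AAATCAC once (2.75%). Tuba1a and Tuba1c held CCAAT once each, and the windows of Tuba1b, Tuba4a, Tuba8, Tubb1 and Tubb2a held none of the 6 motifs. The Tubb1 window ended at 174450594, before the GENCODE start at 174450695, and the Tuba4a window lay inside the GENCODE gene. Parts of the windows of Tuba1a, Tuba1b, Tuba8 and Tubb5 also lay inside their GENCODE genes. For Tubb1 and Tubb2a the bases after the start used matched no GENCODE transcript of the gene. A lack of matches therefore holds for these windows only, and other start sites were not searched. Over all windows TGAGTCA occurred in 4.46%, CCGGAA in 12.0% and TGTGGT in 14.0%. A match is a run of letters and not a measured site.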

How the data were processed

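The authors deposited 1 table of raw read counts per Ensembl gene for each of the 4 libraries. Tools named in the submitters' processing notes are HTSeq, DESeq, SAMtools and TopHat2 (version 2.0.10), with GRCm38, also called mm10, as the build. For the annotation release, strand setting and read length: not given in the sources used here. Per the labels' protocols the library kit was stranded and for mRNA. The 5 HTSeq category lines stayed out of library sizes. They included reads without a gene, 32.1% to 36.2% of uniquely aligned reads. Total counts per library set the precision: 3 counts, the limit that a count of 0 allows, were 0.0487 to 0.137 CPM. Intervals cover counting error only, as the reads carry no molecular identifiers.

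Genotype and Cre model were fitted together in edgeR 4.0.16 (R 4.3.3) over all genes: TMM scaling, filterByExpr by genotype (minimum count 10), quasi-likelihood F-tests, Benjamini-Hochberg adjustment at 0.05, 1 residual and 6.25 prior degrees of freedom. SE was taken as the absolute log2 fold change divided by the root of the F statistic. The fit was checked on simulated data. Ratios within a model used normalised counts, a pseudocount of 1 and a 95% Clopper-Pearson interval. Exonic lengths, positions and transcripts came from GENCODE M21, and symbols were found for 40254 identifiers. The 10 genes and the gene lists were chosen with earlier results of these data known. Named genes were all 10, Gfi1b, up to 4 genes per list with the smallest p-values, the most abundant of each tubulin-related list, and the 3 nearest in pattern to Tuba8 and Tubb1. Gp6, Gp1ba, Itga2b, Pf4, Cct7, Agbl3, Vash1, Tubb3, Tubb4a, Nfe2, Ccr2 and the genes sharing sequence were chosen after seeing their values. Alternatives were other scalings, tests, filters, priors and model terms, DESeq2 1.42.0, leaving out each library, and, added later, a GC and length correction (splines with 4 degrees of freedom). Coding stretches of the alpha genes are not reported here.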

Additional observations from a re-analysis of the deposited data

How the results depend on the processing

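Against 6 tubulin genes called lower, 5 to 7 were called under 7 alternatives: size factors or the Wald test of DESeq2, the older quasi-likelihood fit, a robust prior, no filter, a filter at 5 CPM on average, and the GC and length correction. Without the Cre model term the count was 0, and leaving out 1 library gave 0 to 1. Tuba1a was the only gene whose direction turned, at 0.0204 under the 5 CPM filter and from -0.29 to 0.21 when 1 library was left out. The other 9 genes were lower under all 12 alternatives. Over all genes 3348 were called, against 1935 with no filter, 162 without the Cre model term, and 509 to 883 without 1 library. The causes were not tested. The GC and length correction, added after seeing the data, left 35.2% of calls higher, against 56.9%, and moved the median of all genes from -0.02 to -0.17 (log2), with the tubulin median at -0.77. The main test pairs the libraries by Cre model, and the fit without that term is the unpaired one. The labels give no replicate numbers for another block. The fewest counts behind a tubulin value were 111 (Tubb1) and 123 (Tubb6), both in the ROSA-Cre knockout, which widens the counting intervals of those ratios.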
